A study of Mus musculus with 12 samples.

Results

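The chemokines described here are 9 genes listed by name, the CXC ligands Cxcl1, Cxcl2, Cxcl9, Cxcl10, Cxcl12, Cxcl13, Cxcl14 and Cxcl16 and the CX3C ligand Cx3cl1, and all 9 were found by their Ensembl identifiers among the 24187 genes of the count table. Bulk RNA sequencing was performed on livers of 12 mice. The groups were 3 untreated control mice, 5 mice injured with acetaminophen (APAP) and given PBS vehicle, and 4 mice injured with APAP and given hAAMs, which are human macrophages alternatively activated in culture. The labels give a single APAP dose of 350 mg/kg for both injured groups and name no strain, sex or age. The methods of the study name mice of 10 to 12 weeks, given as C57BL/6 J in one place and as C57BL6/JOlaHsd in another, a fast of 12 h before APAP, and an intravenous injection of cells or vehicle 16 h after APAP. They also name a higher dose for a severe model, and they state neither the dose nor the time of collection separately for the sequenced livers. The given cells were human, the mice kept their own macrophages, and reads of human transcripts were not separated from mouse reads. A 10 mg piece of whole liver was measured in each mouse, so fewer cells of a type and less RNA per cell cannot be told apart.

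Chemokines are small secreted or membrane-tethered proteins that direct white blood cells by binding receptors coupled to G proteins. In the CXC family, ligands with a Glu-Leu-Arg motif before the first cysteines, such as Cxcl1 and Cxcl2, attract neutrophils through Cxcr2. Cxcl9, Cxcl10 and Cxcl11 are induced by interferon and attract T and NK cells through Cxcr3. Cxcl12 retains Cxcr4-bearing cells, Cxcl13 attracts B cells through Cxcr5, and Cxcl16 and Cx3cl1 are made as membrane proteins for Cxcr6 and Cx3cr1. In the liver, hepatocytes, sinusoidal endothelium, stellate cells and Kupffer cells all make members of this family, and the inflammatory ones are induced through NF-kB.

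Total counts per liver ranged from 47391650 to 74056505. All 9 chemokines passed the low-count filter, which kept 22581 genes. Levels are counts per 1000000 counts of the library (CPM) after TMM scaling, which evens out library composition, and a gene was called when its Benjamini-Hochberg FDR in the edgeR quasi-likelihood test over all tested genes was under 0.05. Hepatocyte markers were abundant in every liver, summing to 48027 to 90803 CPM, and the Y-linked gene Ddx3y was between 54.4 and 75.1 CPM in all 12 livers.

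Control replicate 1 stood apart from the other control livers in this gene family, and the comparisons with control are therefore given with and without it. Its Cxcl2 level was 47.5 times the mean of the other control livers, its Cxcl10 level 43.9 times, its Cxcl9 level 6.5 times and its Cxcl13 level 4.14 times. Only 25 of the 22581 tested genes had a larger ratio than Cxcl2 and 26 a larger ratio than Cxcl10. Of all tested genes, 0.952% were over 4-fold higher in this liver, against 4 of the 9 chemokines. Cxcl1 was 1.94 times the mean of the other control livers, Cx3cl1 1.57 times and Cxcl16 1.31 times. Cxcl12 and Cxcl14 were lower in this liver, at 0.706 and 0.242 times that mean.

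Other inflammatory genes were high in the same liver. Among 9 NF-kB genes, 7 were over 2-fold higher in control replicate 1 and 5 over 4-fold higher, where 4.16% of all tested genes were over 2-fold higher. Tnfaip3, an inhibitor of NF-kB signalling, was 9.45 times the mean of the other control livers, and Nfkbia, which encodes the inhibitor IkBα, was 4.89 times. Irf1, a transcription factor induced by interferon gamma and NF-kB, was 5.92 times. Neutrophil markers summed to 27.9 CPM in control replicate 1 and to 10.8 and 6.93 CPM in control replicates 2 and 3. Of the 8 markers, 6 were over 2-fold higher in control replicate 1, while Ngp was at 1.24 times and Ltf was lower, at 0.176 times. Of the 7 markers of monocytes and recruited macrophages, 3 were over 2-fold higher in that liver. These were Gpnmb at 4.64 times, Ly6c2 at 2.701 times and Chil3 at 2.31 times. Ccr2 and Plac8 were at 1.41 and 1.32 times, and Itgam and Trem2 were lower, at 0.884 and 0.694 times. Against 11.2 and 8.87 CPM in control replicates 2 and 3, the 7 markers summed to 14.7 CPM in control replicate 1. The T and NK cell markers summed to 3.47 CPM there and to 3.35 and 3.62 CPM in the other control livers. Of 12 interferon-induced comparison genes, 2 were over 2-fold higher and 0 over 4-fold higher. The part of these genes or cells in the chemokine levels was not tested.

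**Figure D1:**
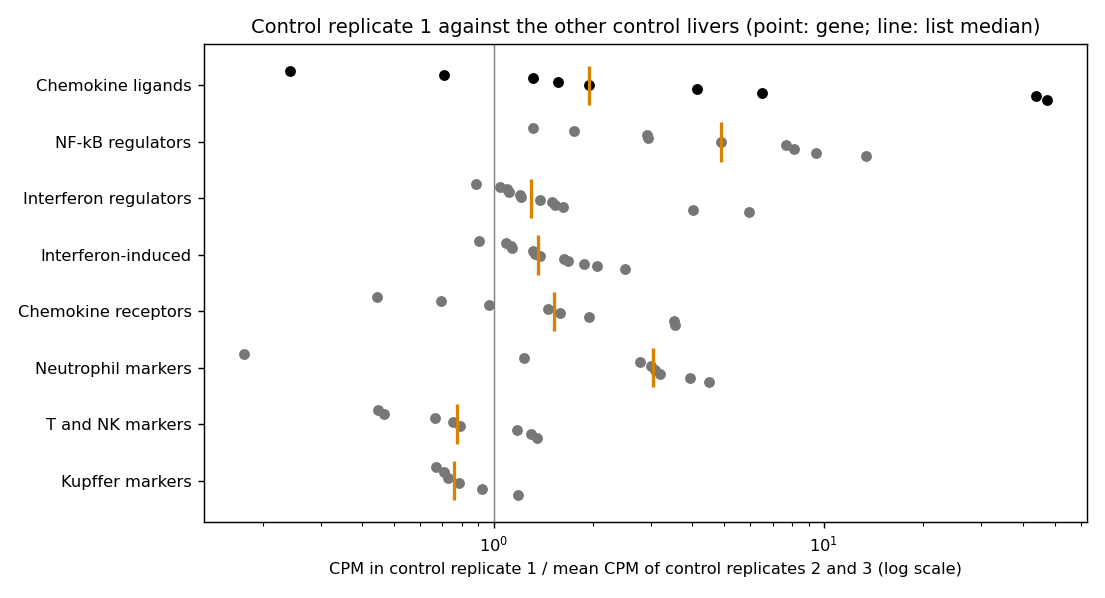
Ratio of the CPM of control replicate 1 to the mean CPM of control replicates 2 and 3 on a log axis, with 1 point per tested gene, by gene list, and the list median as a vertical line. Cxcl2 and Cxcl10 lie at 47.5 and 43.9, and the median of the NF-kB regulators is 4.89.

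The upstream sequences of the 4 chemokines over 4-fold higher in control replicate 1, Cxcl2, Cxcl10, Cxcl9 and Cxcl13, are shown with that of Cxcl1, the neighbour and close paralog of Cxcl2. Of those 4, Cxcl2 and Cxcl10 carry matches to kappaB, the motif bound by NF-kB, and Cxcl9 and Cxcl13 do not. RefSeq promoters of the assembly GRCm38.p6 were found for 8 of the 9 chemokines. The bases from 250 to 51 before the annotated start were searched on both strands for kappaB, for the interferon-stimulated response element (ISRE, written as GAAA, any 2 bases and GAAA) and for the gamma-activated site TTCNNNGAA (GAS). Capitals mark matches. Cxcl1 is read at chr5:90890995-90891194 on the plus strand, Cxcl2 at chr5:90903649-90903848 on the plus strand, Cxcl10 at chr5:92348940-92349139 on the minus strand, Cxcl9 at chr5:92328130-92328329 on the minus strand and Cxcl13 at chr5:95956689-95956888 on the plus strand, each 5′ to 3′ toward the gene.
Cxcl1: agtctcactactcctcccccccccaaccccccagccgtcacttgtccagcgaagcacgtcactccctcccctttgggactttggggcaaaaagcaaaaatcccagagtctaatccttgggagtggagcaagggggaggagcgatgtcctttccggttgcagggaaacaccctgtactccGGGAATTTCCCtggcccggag
Cxcl2: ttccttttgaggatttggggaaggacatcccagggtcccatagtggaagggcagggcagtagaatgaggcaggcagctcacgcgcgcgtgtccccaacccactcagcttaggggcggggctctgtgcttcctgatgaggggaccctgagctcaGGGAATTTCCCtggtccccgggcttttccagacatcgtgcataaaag
Cxcl10: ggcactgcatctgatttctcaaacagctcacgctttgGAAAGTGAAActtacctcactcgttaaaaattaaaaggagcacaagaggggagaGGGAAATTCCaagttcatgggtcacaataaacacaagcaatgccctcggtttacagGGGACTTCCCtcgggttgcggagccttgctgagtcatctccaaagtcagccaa
Cxcl9: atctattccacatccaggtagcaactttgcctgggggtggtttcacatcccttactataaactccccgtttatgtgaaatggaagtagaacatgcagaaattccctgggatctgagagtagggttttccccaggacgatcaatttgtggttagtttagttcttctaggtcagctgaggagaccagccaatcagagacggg
Cxcl13: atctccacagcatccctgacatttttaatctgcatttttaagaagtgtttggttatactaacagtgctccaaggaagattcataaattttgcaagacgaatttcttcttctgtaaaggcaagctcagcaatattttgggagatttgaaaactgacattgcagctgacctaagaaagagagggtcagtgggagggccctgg

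Cxcl1 and Cxcl2 carry the same kappaB match, GGGAATTTCC, at 71 to 62 bases before the start of Cxcl1 and at 97 to 88 bases before that of Cxcl2. In both, a kappaB match on the other strand overlaps it, offset by 1 base, so that the capitals span 11 bases. Cxcl10 holds the kappaB matches GGGAAATTCC, at 159 to 150 bases, and GGGACTTCCC, at 103 to 94 bases, and the ISRE match GAAAGTGAAA at 213 to 204 bases. The windows of Cxcl9 and Cxcl13 have no match to these letters, and neither have those of Cxcl12 and Cx3cl1. Variants of these letters and bases nearer the start were not searched. The Cxcl14 window has an ISRE match and a GAS match. Of 32851 promoter windows of this length, 3.13% hold a kappaB match, 2.4% an ISRE match and 5.76% a GAS match. A match describes the letters and was not tested as a binding site.

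Against control, 2 of the 9 chemokines fell in vehicle-treated mice, Cxcl1 and Cxcl9, and 4 fell in hAAM-treated mice, Cxcl1, Cxcl9, Cxcl12 and Cxcl13. None was called higher in either group. With vehicle 29.8% of all tested genes were called, 14.8% lower and 15.0% higher. With hAAMs 20.7% were called, 9.96% lower and 10.7% higher. The median log2 fold change of the 9 chemokines was −1.11 with vehicle and −1.89 with hAAMs, where the median of all tested genes was 0.012 and 0.016. Leaving out control replicate 1 moved the median of the 9 to 0.31 with vehicle and to −0.00486 with hAAMs, so the low medians rest on this liver. Both comparisons use the same 3 control livers. Without control replicate 1, 3 chemokines were called lower with vehicle, Cxcl1, Cxcl9 and Cxcl12, and 2 with hAAMs, Cxcl1 and Cxcl12, while 10.5% and 6.54% of all tested genes were called lower and 11.0% and 6.57% higher. Scaling by library size alone, in place of TMM, moved the median of all genes up by 0.36 with vehicle and 0.32 with hAAMs, so that 4.92% and 3.46% of all genes were called lower and 38.2% and 29.0% higher, and Cxcl1, Cxcl9 and, with hAAMs, Cxcl13 were still called lower. In CPM, the vehicle-treated mice lay wholly below control for Cxcl1, Cxcl9 and Cxcl12, and the hAAM-treated mice for Cxcl1 and Cxcl13. Over all tested genes, 17.3% and 14.2% lay wholly below control in these comparisons.

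**Figure D2:**
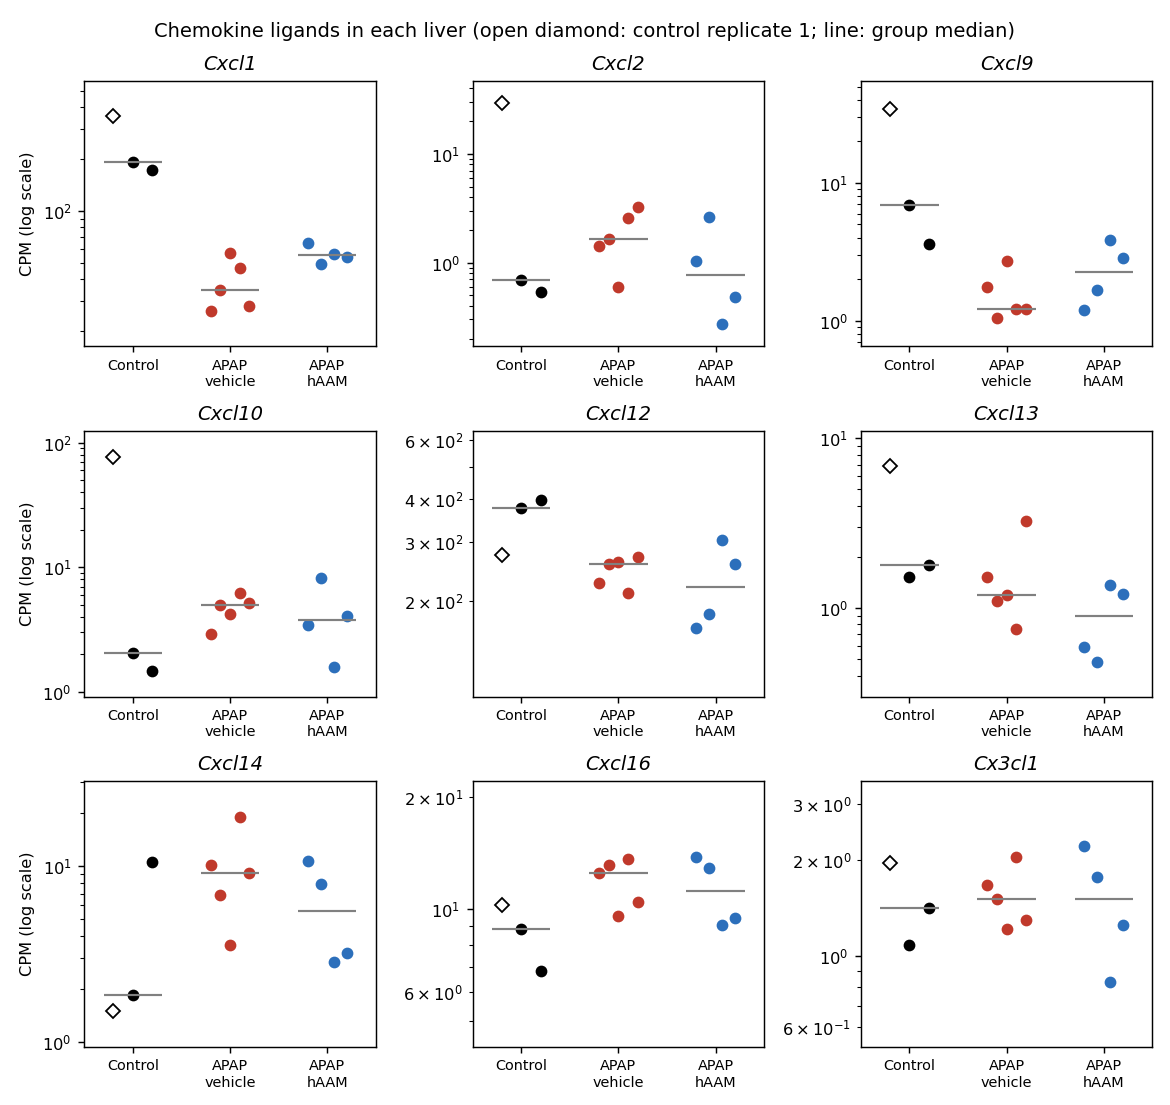
CPM of the 9 chemokines in each liver on log axes, with control in black, APAP vehicle in red and APAP hAAM in blue, an open diamond for control replicate 1 and a line at the group median. In Cxcl1 all 9 injured livers, at 26.0 to 64.6 CPM, lie below the 3 control livers at 173 to 356 CPM, and in Cxcl2 and Cxcl10 the open diamond lies far above every other liver.

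Cxcl1 (ENSMUSG00000029380, GRCm38 chr5:90891241-90893115, plus strand) encodes a neutrophil attractant and was the chemokine with the highest level per kilobase of transcript in control livers. Its counts were 18680, 12275 and 8768 in control replicates 1 to 3. In vehicle-treated mice the counts were 1510, 2000, 2917, 3156 and 1879, and in hAAM-treated mice 3413, 2663, 2892 and 2895. All injured livers lay below all control livers, also without control replicate 1. Levels were 241 ± 100 CPM in control (SD, n = 3), 38.3 ± 13.0 CPM with vehicle (SD, n = 5) and 56.0 ± 6.37 CPM with hAAMs (SD, n = 4). Cxcl1 fell by 2.65 on the log2 scale with vehicle, 6.28-fold lower (SE 0.273, FDR 9.9e-05), and by 2.10 with hAAMs, 4.30-fold lower (SE 0.290, FDR 0.00108). The log2 fold changes without control replicate 1 were −2.25 (FDR 0.000326) and −1.71 (FDR 0.00321). Cxcl1 was called in both comparisons in all 12 fits that left out 1 liver.

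Cxcl2 (ENSMUSG00000058427, chr5:90903871-90905938, plus strand), the other Cxcr2 ligand of the list, had 1528 counts in control replicate 1 and 44 and 27 counts in the other control livers. The counts with vehicle were 83, 94, 31, 174 and 220, and those with hAAMs were 55, 143, 14 and 26. Both injured groups lay below the high control liver and overlapped the other control livers. The fitted log2 fold change was −2.40 with vehicle (SE 1.05, FDR 0.103) and −3.18 with hAAMs (SE 1.18, FDR 0.0748). The signs turned without control replicate 1, to 1.63 (FDR 0.176) and 0.86 (FDR 0.523), so no direction against control is given for Cxcl2. With control replicate 2 left out instead, the hAAM value was −3.73 (FDR 0.0434), and with control replicate 3 left out it was −3.74 (FDR 0.0484). Cxcl1, Cxcl2 and Cxcl3 are close paralogs and may have exchanged reads. The neutrophil markers summed to 10.9 to 42.0 CPM with vehicle and 12.1 to 37.8 CPM with hAAMs, and 0 of the 8 markers were called against 3 control livers, while 1 was called higher in each group without control replicate 1, where 11.0% and 6.57% of all genes were.

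Cxcl9 (ENSMUSG00000029417, chr5:92321347-92328079, minus strand) is a Cxcr3 ligand induced mainly by interferon gamma. It had 1798, 442 and 182 counts in control replicates 1 to 3. With vehicle it had 103, 60, 140, 82 and 82 counts, and with hAAMs 63, 90, 199 and 152 counts. All vehicle-treated livers lay below control in CPM, whereas hAAM replicate 3, at 3.85 CPM, exceeded control replicate 3, at 3.60 CPM. Cxcl9 fell by 3.24 on the log2 scale with vehicle, 9.43-fold lower (SE 0.621, FDR 0.00299), and by 2.64 with hAAMs, 6.25-fold lower (SE 0.657, FDR 0.0160). These became, without control replicate 1, −1.74 (FDR 0.0194) and −1.14 (FDR 0.124), so the call with vehicle was kept and the call with hAAMs was lost. The call with hAAMs was kept when any other liver was left out. Markers of T and NK cells, which respond to Cxcl9, summed to 3.35 to 3.62 CPM in control, 1.52 to 3.04 CPM with vehicle and 2.00 to 4.86 CPM with hAAMs. All vehicle-treated livers lay below control in this sum, and most of the difference in its means lay in Cd4, at 1.77 CPM in control and 0.688 CPM with vehicle. Cd4 was the 1 marker of the 8 tested that was called, lower with vehicle with or without control replicate 1. Of all tested genes, 14.8% were called lower with vehicle, or 10.5% without control replicate 1, so 1 of 8 is near the background. Cd3d, Nkg7 and Klrb1c had higher means with vehicle than in control. The part of these cells in the Cxcl9 level was not tested.

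Cxcl10 (ENSMUSG00000034855, chr5:92346638-92348889, minus strand), a Cxcr3 ligand induced by type I interferon, interferon gamma and NF-kB, gave opposite pictures with and without control replicate 1. That liver had 4060 counts, and control replicates 2 and 3 had 131 and 74. The counts with vehicle were 168, 287, 217, 417 and 352, and with hAAMs 181, 446, 81 and 218. Each vehicle-treated liver, at 2.89 to 6.16 CPM, was above control replicates 2 and 3, at 2.06 and 1.46 CPM. hAAM-treated livers were at 1.57 to 8.26 CPM, with replicate 3 between those control livers. With 3 control livers the log2 fold change was −2.52 with vehicle (SE 0.957, FDR 0.0652) and −2.64 with hAAMs (SE 1.04, FDR 0.0913). It was, without control replicate 1, 1.41 (FDR 0.0743) and 1.30 (FDR 0.125) in edgeR. DESeq2 without this liver, an alternative added after seeing the data, called Cxcl10 higher in both groups, at 1.41 (FDR 0.0179) and 1.30 (FDR 0.0493), where 14.2% and 10.9% of all genes were. With control replicate 2 left out the values were −3.07 (FDR 0.0279) and −3.19 (FDR 0.0440), and with control replicate 3 left out −3.08 (FDR 0.0263) and −3.20 (FDR 0.0453), called lower in edgeR. The direction of Cxcl10 therefore rests on 1 control liver. Cxcl10 overlaps Art3 on the opposite strand, which had at most 124 counts in a liver, and the strand setting of the counting is not given in the sources used here.

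**Figure D3:**
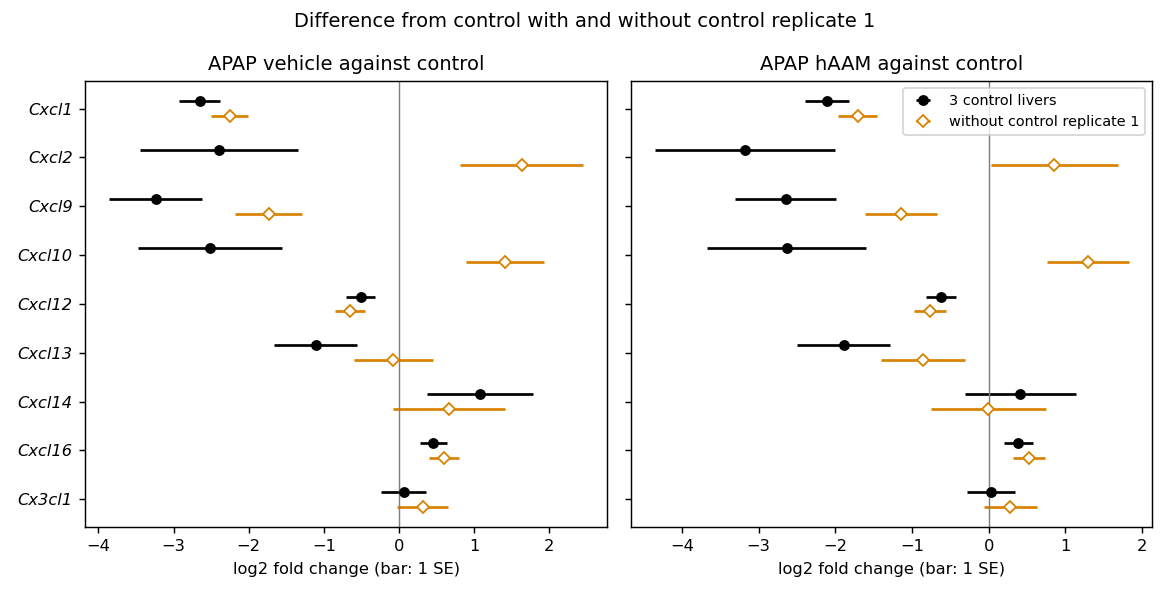
log2 fold change of each chemokine against control, with bars of 1 SE, for APAP vehicle (left) and APAP hAAM (right), from all 3 control livers (filled circles) and without control replicate 1 (open diamonds). Cxcl2 and Cxcl10 change sign in both panels, while Cxcl1 stays at −1.71 or below.

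Cxcl12 (ENSMUSG00000061353, chr6:117168535-117181367, plus strand) encodes the ligand of Cxcr4 and Ackr3, made in liver by sinusoidal endothelium and mesenchymal cells. Its counts were 14330, 23902 and 20142 in control mice. They were 13150, 14766, 13446, 14318 and 18235 with vehicle and 8814, 9864, 15628 and 13768 with hAAMs. The levels were 349 ± 66.6 CPM in control (SD, n = 3), 245 ± 24.8 CPM with vehicle (SD, n = 5) and 227 ± 63.8 CPM with hAAMs (SD, n = 4). Here control replicate 1 was the lowest control liver, at 273 CPM, just above the highest vehicle-treated liver at 269.7 CPM and below hAAM replicate 3 at 303 CPM. Cxcl12 fell by 0.62 on the log2 scale with hAAMs, 1.54-fold lower (SE 0.199, FDR 0.0454), whereas with vehicle the difference was −0.51 (SE 0.189, FDR 0.0598). Scaled by library size alone, it was called in neither group, at −0.34 with hAAMs (FDR 0.128) and −0.17 with vehicle (FDR 0.406). With only the compared groups in the fit the call with hAAMs was lost (FDR 0.115) and Cxcl12 was called lower with vehicle (FDR 0.0218), as it was in DESeq2 (FDR 0.0373). It was called lower without control replicate 1 in both groups, at −0.66 (FDR 0.0383) with vehicle and −0.76 (FDR 0.0360) with hAAMs. The call with hAAMs was close to the threshold and was kept in 3 of the 12 fits without 1 liver, those without control replicate 1, hAAM replicate 3 or hAAM replicate 4, with FDR values from 0.0117 to 0.161 over the 12. Cxcl12 was also called lower with vehicle without hAAM replicate 1 (FDR 0.0418) or hAAM replicate 3 (FDR 0.0319). These livers are in the fit but not in that comparison, and why the call changed was not tested. Endothelial markers summed to 299 to 326 CPM in control, 322 to 376 CPM with vehicle and 303 to 345 CPM with hAAMs, and stellate cell markers to 339 to 459, 391 to 420 and 391.8 to 442 CPM. Within these sums the markers moved apart. Lyve1 and Oit3 of the 6 endothelial markers and Des and Pdgfrb of the 8 stellate cell markers were called higher in both groups. Of all tested genes, 15.0% were called higher with vehicle and 10.7% with hAAMs. Clec4g, an endothelial lectin, was at 35.7 CPM in control, 23.9 CPM with vehicle and 22.4 CPM with hAAMs (FDR 0.0598 and 0.0532). Leaving out control replicate 1, 2 and 0 endothelial and 3 and 1 stellate cell markers were called higher with vehicle and hAAMs. In that fit 11.0% and 6.57% of all genes were called higher. The part of these cells in the Cxcl12 level was not tested.

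Cxcl13 (ENSMUSG00000023078, chr5:95956951-95961068, plus strand), the B-cell attractant, had 361 counts in control replicate 1 and 97 and 91 in the other control livers. The vehicle-treated livers had 89, 63, 62, 51 and 220 counts and the hAAM-treated livers 31, 26, 71 and 65 counts. hAAM-treated livers lay below all control livers, and vehicle replicate 5 was the highest injured liver. Cxcl13 fell by 1.89 on the log2 scale with hAAMs, 3.71-fold lower (SE 0.607, FDR 0.0450), whereas with vehicle the difference was −1.11 (SE 0.556, FDR 0.151). The values without control replicate 1 were −0.86 (FDR 0.312) with hAAMs and −0.08 (FDR 0.933) with vehicle. The call with hAAMs was kept in 4 of the 12 fits without 1 liver, those without control replicate 2, vehicle replicate 4, vehicle replicate 5 or hAAM replicate 3, and was near the threshold. Vehicle replicate 5 also had the highest B lineage markers, which summed to 90.1 CPM against 4.86 to 6.33 CPM in the other vehicle-treated livers. Its red cell markers, at 1410 CPM against 161 to 364 CPM, and its platelet markers, at 8.30 CPM against 3.90 to 4.80 CPM, were the highest of that group too. Without that liver Cxcl13 was called lower with vehicle, at −1.57 (FDR 0.0487), and the part of B lineage or blood cells was not tested.

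Cxcl14 (ENSMUSG00000021508, chr13:56288643-56296551, minus strand) encodes a chemokine made constitutively by epithelia. It had 79, 118 and 535 counts in control replicates 1 to 3, so here control replicate 3 was the high one. The counts were 592, 393, 185, 1287 and 620 with vehicle and 563, 426, 147 and 173 with hAAMs. All injured livers, from 2.85 CPM upward, exceeded control replicates 1 and 2, at 1.51 and 1.86 CPM, while control replicate 3 was at 10.6 CPM. The log2 fold change was 1.08 with vehicle (SE 0.704, FDR 0.268) and 0.41 with hAAMs (SE 0.720, FDR 0.721). Without control replicate 3 it was 2.54 with vehicle (FDR 0.0284), called higher, and 1.87 with hAAMs (FDR 0.102). Without control replicate 1 it was 0.66 (FDR 0.553) and −0.00 (FDR 0.998).

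The transmembrane ligands were called in neither injured group. Cxcl16 (ENSMUSG00000018920, chr11:70453983-70459984, minus strand) encodes a scavenger receptor that is shed as the ligand of Cxcr6. It had 539, 560 and 346 counts in control, 725, 752, 495, 921 and 705 with vehicle, and 726, 696, 468 and 505 with hAAMs. Control replicate 1, at 10.3 CPM, lay within the range of both injured groups, 9.58 to 13.6 and 9.06 to 13.7 CPM, whose lowest livers were above control replicates 2 and 3. The log2 fold change was 0.45 with vehicle (SE 0.180, FDR 0.0758) and 0.38 with hAAMs (SE 0.187, FDR 0.165). Without control replicate 1 it was 0.60 (FDR 0.0544) with vehicle and 0.53 (FDR 0.109) with hAAMs, and without vehicle replicate 3 Cxcl16 was called higher with vehicle, at 0.52 (FDR 0.0471). Scaled by library size alone, Cxcl16, at 0.80 and 0.70, was called higher in both groups, as were 38.2% and 29.0% of all genes. Cxcl16 overlaps Zmynd15 on the opposite strand, which had up to 383 counts.

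Cx3cl1 (ENSMUSG00000031778, chr8:94772009-94782427, plus strand), fractalkine, the ligand of Cx3cr1, had the lowest mean level per length in each group, but in control only through control replicate 1, without which Cxcl2 was lower, and Cxcl2 lay below it in 5 of the 12 livers. It had 103, 69 and 72 counts in control, 97, 87, 63, 139 and 88 with vehicle, and 117, 96, 43 and 67 with hAAMs. The 3 groups overlapped throughout. The log2 fold change was 0.06 with vehicle (SE 0.300, FDR 0.894) and 0.03 with hAAMs (SE 0.315, FDR 0.954), and leaving out control replicate 1 gave 0.31 (FDR 0.533) and 0.28 (FDR 0.622).

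Between genes, levels were compared per kilobase of annotated exon, since longer transcripts give more counts. In control livers the mean level was 128 CPM per kb for Cxcl1, 42.7 for Cxcl12, 11.97 for Cxcl10, 4.95 for Cxcl9, 4.89 for Cxcl2, 2.96 for Cxcl13, 2.86 for Cxcl16, 2.54 for Cxcl14 and 0.379 for Cx3cl1. The 3 control livers of Cxcl1, at 92.4 to 190 CPM per kb, were above those of Cxcl12, at 33.4 to 48.7. From Cxcl12 to Cxcl14 the control livers of each gene overlapped those of the next, those of Cxcl12 and Cxcl10 only through control replicate 1, and Cx3cl1 lay below Cxcl14 in every control liver. The places of Cxcl10, Cxcl9 and Cxcl2 rest on control replicate 1. In the other control livers the mean was 97.7 CPM per kb for Cxcl1, 47.3 for Cxcl12, 3.40 for Cxcl14, 2.59 for Cxcl16, 1.75 for Cxcl9, 1.45 for Cxcl13, 0.782 for Cxcl10, 0.319 for Cx3cl1 and 0.296 for Cxcl2. With vehicle the order was led by Cxcl12 at 30.0 CPM per kb and Cxcl1 at 20.5, followed by Cxcl14 at 5.34 and Cxcl16 at 3.92. With hAAMs Cxcl1 was at 29.9 and Cxcl12 at 27.8 CPM per kb, followed by Cxcl16 at 3.73 and Cxcl14 at 3.37. Within each injured group, the livers of Cxcl1 and Cxcl12 overlapped on this scale, as did those of Cxcl14 and Cxcl16. Cxcl9 was at 0.527 CPM per kb with vehicle and 0.792 with hAAMs, and Cx3cl1 at 0.395 and 0.386. These lengths join all annotated exons, so a gene with long alternative ends, such as Cxcl12, is placed low.

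Between the treatments, no chemokine was called. The edgeR test called 0 of the 9 and 0.0% of all 22581 genes, while 1133 genes (5.02%) had an unadjusted p under 0.05. DESeq2 called 1 gene (0.00443%), which was no chemokine. The closest of the 9 was Cxcl1, at 38.3 CPM with vehicle and 56.0 CPM with hAAMs, a log2 fold change of 0.55 (95% interval −0.00 to 1.10, edgeR unadjusted p = 0.0510, FDR 0.966). Its hAAM-treated livers lay at 49.3 to 64.6 CPM and its vehicle-treated livers at 26.0 to 56.5 CPM, and 4 of the 5 vehicle-treated livers were below every hAAM-treated liver. In each of the 9 genes the livers of the 2 groups overlapped, and they were apart in 1.4% of all tested genes. The interval of the log2 difference was −0.42 to 0.28 for Cxcl16, −0.49 to 0.27 for Cxcl12 and −0.63 to 0.57 for Cx3cl1. For the other members it was wider, −0.70 to 1.88 for Cxcl9, −1.98 to 0.42 for Cxcl13, −2.03 to 0.69 for Cxcl14, −2.11 to 1.88 for Cxcl10 and −3.08 to 1.52 for Cxcl2. Differences of several fold in either direction lay within the intervals of Cxcl2 and Cxcl10.

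**Figure D4:**
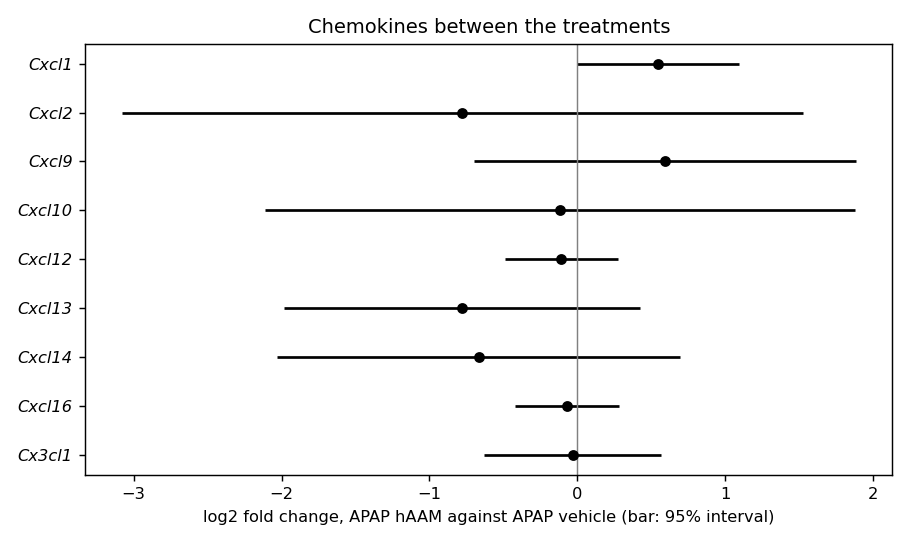
log2 fold change of each chemokine in hAAM-treated against vehicle-treated mice, with the 95% interval of the edgeR fit. All 9 intervals include 0, and the interval of Cxcl1, −0.00 to 1.10, barely does.

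The livers of hAAM replicate 4 and vehicle replicate 3 were nearly alike. Their counts spread 1.19 times as far as counting noise gives, while the other 35 pairs of injured livers spread 2.37 to 4.97 times as far. In these 2 livers the chemokines differed by 1.01-fold to 1.24-fold, and Cxcl10, for instance, had 218 and 217 counts. Whether they come from 1 animal or 1 library is not known from the labels, and if they did, the n and the intervals of both groups would not hold as given. They carry different group labels and were each kept in their own group. With both left out, Cxcl1 differed between the treatments by 0.74 on the log2 scale (unadjusted p = 0.0191, FDR 0.667), and 0 chemokines were called. Against control the hAAM calls of Cxcl12 (FDR 0.0622) and Cxcl13 (FDR 0.0696) were then lost, and Cxcl16 was called higher with vehicle at 0.53 (FDR 0.0450).

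Of the receptors, Cxcr4 and Cx3cr1 rose in both injured groups, while their ligands Cxcl12 and Cx3cl1 were called higher in neither. Cxcr4 had 14 to 77 counts in control, 105 to 390 with vehicle and 118 to 314 with hAAMs. On the log2 scale Cxcr4 rose by 2.01 with vehicle (FDR 0.0117) and 2.30 with hAAMs (FDR 0.0112). Cx3cr1, carried by monocytes and macrophages, was at 1.41 to 2.04 CPM in control, 5.34 to 12.4 CPM with vehicle and 3.66 to 13.3 CPM with hAAMs. Cx3cr1 rose by 2.32 with vehicle (FDR 0.00274) and 2.12 with hAAMs (FDR 0.00768). Leaving out control replicate 1, both receptors were still called in both groups, with FDR values of 0.0288 and 0.0288 for Cxcr4 and 0.0155 and 0.0330 for Cx3cr1. Markers of monocytes and recruited macrophages moved with them. They summed to 8.87 to 14.7 CPM in control, 58.0 to 126 CPM with vehicle and 56.2 to 127 CPM with hAAMs, and 5 of the 7 were called higher in each injured group, where 15.0% of all tested genes were with vehicle and 10.7% with hAAMs. The count was also 5 of the 7 without control replicate 1, against 11.0% and 6.57% of all genes. The part of these cells in the receptor levels was not tested.

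**Figure D5:**
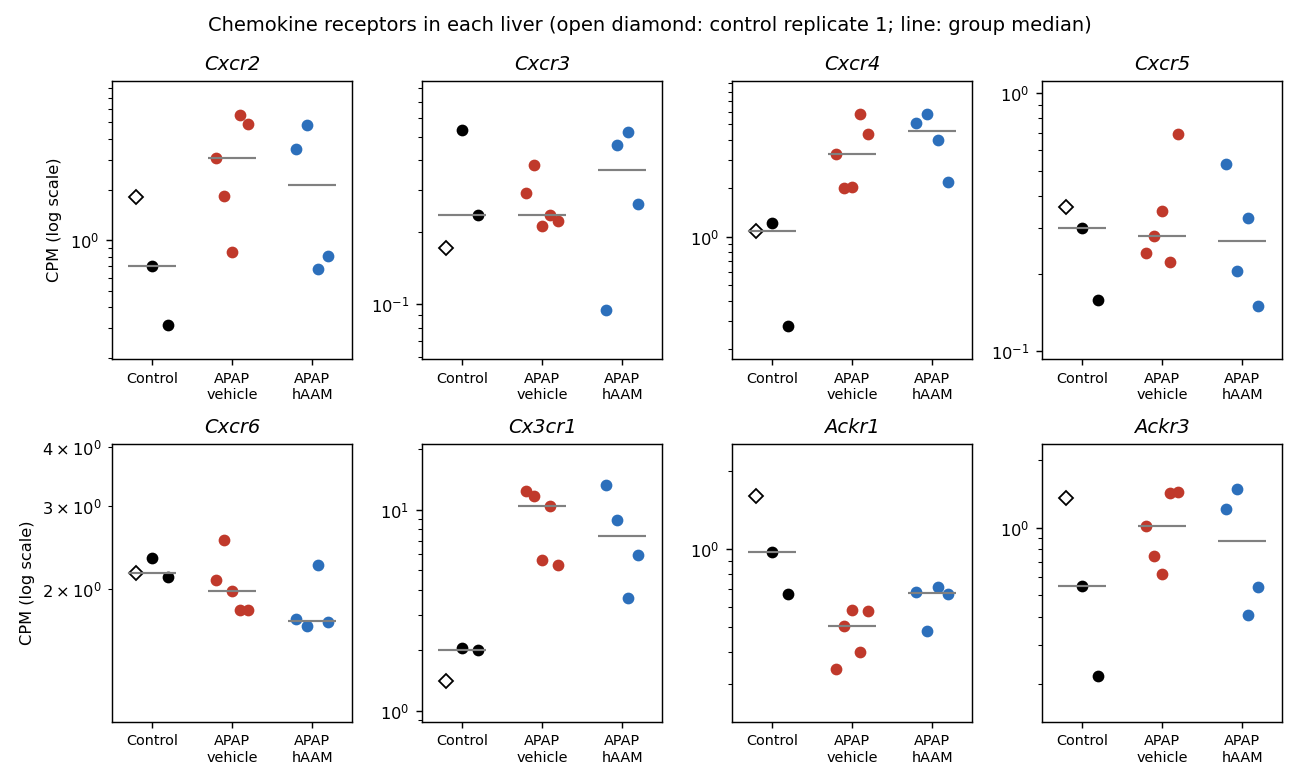
CPM of the 8 tested chemokine receptors in each liver on log axes, drawn as for the ligands. Cxcr4 is at 0.277 to 1.21 CPM in control, 2.00 to 5.77 CPM with vehicle and 2.20 to 5.81 CPM with hAAMs.

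In all, 8 of the 9 receptors were tested. With vehicle 2 were called higher and 1 lower, and with hAAMs 2 higher and 0 lower. Of all tested genes, 15.0% were higher and 14.8% lower with vehicle, and 10.7% and 9.96% with hAAMs, so with so few receptors these counts are not set apart from the background. Leaving out control replicate 1, the counts were 2 higher and 0 lower in both groups, against 11.0% higher and 10.5% lower of all genes with vehicle and 6.57% and 6.54% with hAAMs. Ackr1, an atypical receptor that binds chemokines without signalling, fell by 1.17 with vehicle (FDR 0.00841) and had a log2 fold change of −0.76 with hAAMs (FDR 0.0806). Its FDR with vehicle without control replicate 1 was 0.0506, at −0.78. Cxcr2, the neutrophil receptor of Cxcl1 and Cxcl2, had 16 to 95 counts in control, 44 to 372 with vehicle and 35 to 261 with hAAMs, with log2 fold changes of 1.78 (FDR 0.113) and 1.37 (FDR 0.254), or 2.63 (FDR 0.0724) and 2.23 (FDR 0.146) without control replicate 1. Cxcr1, the other neutrophil receptor, had 0 to 12 counts and was not tested. Cxcr3, the receptor of Cxcl9 and Cxcl10 on T cells, had only 5 to 34 counts in any liver, with log2 fold changes of −0.25 (FDR 0.727) and 0.07 (FDR 0.941). Cxcr5, the receptor of Cxcl13 on B cells, had 8 to 47 counts and values of 0.39 (FDR 0.577) and 0.14 (FDR 0.873). Cxcr6, the receptor of Cxcl16, had 90 to 148 counts over all livers and values of −0.11 (FDR 0.627) and −0.26 (FDR 0.268). Ackr3, which scavenges Cxcl12, had 11 to 98 counts and values of 0.58 (FDR 0.447) and 0.37 (FDR 0.687), or 1.43 (FDR 0.0979) and 1.22 (FDR 0.190) without control replicate 1. Leaving out that liver, the values were −0.54 and −0.22 for Cxcr3, 0.63 and 0.38 for Cxcr5 and −0.12 and −0.27 for Cxcr6, and the lowest FDR among these 3 was 0.345.

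Of the other CXC ligands, 6 were tested, of which 2 were called higher and 1 lower with vehicle, and 1 higher and 1 lower with hAAMs. Over all tested genes, 15.0% were called higher and 14.8% lower with vehicle, and 10.7% and 9.96% with hAAMs. In each group 1 ligand was called higher and 0 lower without control replicate 1, against 11.0% and 10.5% of all genes with vehicle and 6.57% and 6.54% with hAAMs. Pf4, a platelet chemokine, rose by 3.11 with vehicle (FDR 0.00525) and 2.73 with hAAMs (FDR 0.0155), from 22 to 31 counts in control to 75 to 556 and 63 to 295 counts. Ppbp, the precursor of another platelet chemokine, rose by 2.45 with vehicle (FDR 0.0237) and had a value of 1.95 with hAAMs (FDR 0.0807). Pf4 was, without control replicate 1, still called in both groups, and the Ppbp value with vehicle was 2.34 (FDR 0.0779). The 3 platelet markers found summed to 2.96 to 3.35 CPM in control, 3.90 to 8.30 CPM with vehicle and 3.08 to 4.88 CPM with hAAMs. Cxcl11, the third Cxcr3 ligand, fell by 0.89 with vehicle (FDR 0.0260) and by 1.06 with hAAMs (FDR 0.0225), and without control replicate 1 its values were −0.45 (FDR 0.188) and −0.62 (FDR 0.111). Scaled by library size alone, Cxcl11 was not called either (FDR 0.111 and 0.0553). The neutrophil attractants Cxcl3 and Cxcl5 stayed low, at 0 to 79 and 0 to 41 counts, and the only control liver with more than 2 counts of either was control replicate 1. Of the proteases that act on these ligands, Adam10 and Adam17, which shed Cxcl16 and Cx3cl1, had values of 0.38 (FDR 0.0710) and −0.08 (FDR 0.560) with vehicle, and 0.37 (FDR 0.106) and 0.08 (FDR 0.606) with hAAMs. Leaving out control replicate 1, they were 0.35 (FDR 0.178) and −0.04 (FDR 0.815) with vehicle, and 0.34 (FDR 0.229) and 0.12 (FDR 0.523) with hAAMs. Dpp4, which trims Cxcl12 and Cxcl10, fell by 0.55 with vehicle (FDR 0.0199) and had a value of −0.16 with hAAMs (FDR 0.510). The value with vehicle was −0.45 (FDR 0.0895) without control replicate 1 and −0.21 (FDR 0.174) scaled by library size alone. Under that scaling Adam10 was called higher in both groups (FDR 0.00994 and 0.0219) and Adam17 with hAAMs (FDR 0.0490).

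The NF-kB list fell in part. With vehicle 6 of the 9 genes were called lower, and with hAAMs 4 of the 9, where 14.8% and 9.96% of all tested genes were, and none was called higher. Without control replicate 1, 3 and 2 were called lower, where 10.5% and 6.54% of all genes were. Scaled by library size alone, 3 and 2 were called lower, where 4.92% and 3.46% of all genes were. Rela, a subunit of NF-kB, fell by 0.57 with vehicle (FDR 0.00276) and 0.59 with hAAMs (FDR 0.00559), and was called without control replicate 1 too, at −0.43 (FDR 0.0132) and −0.44 (FDR 0.0211), but not when scaled by library size alone, at −0.23 (FDR 0.198) and −0.28 (FDR 0.155). Tnfaip3 fell by 3.14 (FDR 0.00420) and 3.07 (FDR 0.0110), and without control replicate 1 its values were −1.21 (FDR 0.0277) and −1.14 (FDR 0.0561). Nfkbiz, an inducible nuclear co-regulator, fell by 1.35 (FDR 0.00469) and 1.38 (FDR 0.00904) and was called without that liver too, at −0.63 (FDR 0.00157) and −0.66 (FDR 0.00265). Nfkbia fell by 1.44 (FDR 0.0211) and 1.51 (FDR 0.0302), and without that liver its values were −0.24 (FDR 0.182) and −0.31 (FDR 0.118). Its call with hAAMs was also lost when scaled by library size alone (FDR 0.0505).

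Of 12 interferon regulators, 1 was called higher and 4 lower with vehicle, and 1 higher and 5 lower with hAAMs, where 15.0% of all tested genes were higher and 14.8% lower with vehicle, and 10.7% and 9.96% with hAAMs. Leaving out control replicate 1, 2 were called higher and 4 lower with vehicle, and 2 higher and 3 lower with hAAMs, where 11.0% of all genes were higher and 10.5% lower with vehicle, and 6.57% and 6.54% with hAAMs. The balance turned when scaled by library size alone, to 4 higher and 3 lower with vehicle and 3 higher and 2 lower with hAAMs. Under that scaling 38.2% of all genes were higher and 4.92% lower with vehicle, and 29.0% and 3.46% with hAAMs. Stat2, a signal transducer of type I interferon, fell by 0.91 (FDR 0.000342) and 0.88 (FDR 0.00115), and its partner Irf9 fell by 0.46 (FDR 0.00351) and 0.47 (FDR 0.00677). Irf1 fell by 2.02 (FDR 0.00706) and 2.36 (FDR 0.00801), and without control replicate 1 its values were −0.62 (FDR 0.00863) and −0.96 (FDR 0.00216). Ifngr1, a chain of the interferon gamma receptor, rose by 0.91 in both groups (FDR 0.000696 with vehicle and 0.00150 with hAAMs). These calls of Stat2, Irf9 and Ifngr1 were kept without control replicate 1, at −0.96 and −0.93, −0.41 and −0.42, and 0.96 and 0.97, with FDR values of at most 0.0295. Scaled by library size alone, Irf9 was not called (FDR 0.446 and 0.335). Of 12 interferon-induced comparison genes, 3 were called higher and 1 lower with vehicle, and 1 higher and 1 lower with hAAMs, where the shares of all genes are those given for the regulators. Scaled by library size alone, 5 were higher and 1 lower with vehicle, and 4 higher and 0 lower with hAAMs. The shares of all genes under that scaling are also those given for the regulators. Rsad2, an antiviral enzyme, rose by 1.88 (FDR 0.000828) and 1.59 (FDR 0.00390), whereas Iigp1, a GTPase induced by interferon gamma, fell by 0.91 (FDR 0.00118) and 0.65 (FDR 0.0129). Rsad2 was still called in both groups without control replicate 1, and Iigp1 with vehicle, at −0.76 (FDR 0.00667), but not with hAAMs, at −0.49 (FDR 0.0584), or with hAAMs when scaled by library size alone (FDR 0.0840). Usp18, an inhibitor of interferon signalling, rose by 0.47 with vehicle (FDR 0.0425, and 0.0648 without control replicate 1) and had a value of 0.28 with hAAMs (FDR 0.255). Mx1, an antiviral GTPase, rose by 0.81 with vehicle (FDR 0.0479) and had a value of 0.82 with hAAMs (FDR 0.0687), and without control replicate 1 it was called higher in both groups, at 1.11 and 1.11 (FDR 0.0282 and 0.0425). 

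For each called chemokine, the genes of most similar pattern were found by the root mean square difference of log2 CPM, centred on control, over the 12 livers, among 15279 genes. For Cxcl1 they were 4732465J04Rik at 0.402 and Fabp5 at 0.424, where the median gene was at 2.09. For Cxcl9 they were Ikzf4 at 0.440 and Mme at 0.618, against a median of 2.25. For Cxcl12 they were Lcat at 0.112 and Camk2n1 at 0.115, against 0.590, and for Cxcl13 they were Pim1 at 0.525 and Serpina3f at 0.566, against 1.35. The patterns of Cxcl9 and Cxcl13 hold the high value of control replicate 1.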

How the data were processed

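Bulk RNA sequencing of frozen liver was analysed for 3 control, 5 APAP vehicle and 4 APAP hAAM mice, grouped by the sample labels. Libraries were depleted of ribosomal RNA and made with a directional kit. The authors trimmed reads with Cutadapt 4.6, aligned them to GRCm38 with STAR 2.7.1a and counted them per gene with summarizeOverlaps, and the submitters' processing notes also name FastQC, MultiQC 1.25 and DESeq2 1.38.3. The strand setting and counting mode are not given in the sources used here. The deposited values are raw counts, not normalized, for 24187 genes. GENCODE M21 gave symbols for 24092 of them and left 95 without. Total counts ranged from 47391650 to 74056505 per liver.

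In R 4.3.3, genes were filtered with filterByExpr by group and scaled with TMM. A quasi-likelihood model of edgeR 4.0.16, without robust estimation and by treatment group alone, was fitted to all 12 livers. Tests were two-sided and p-values were adjusted by Benjamini-Hochberg over 22581 genes at an FDR of 0.05. The common biological variation (BCV) was 0.214, and a prior count of 2 was added for log2 CPM. DESeq2 1.42.0, other scalings and filters, a replicate block and leaving out each liver were tried as alternatives. The test was checked on simulated counts with known fold changes. The labels name each mouse as a replicate of its group.

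All 9 chemokines and every receptor are named. Of each other list, at most the 4 genes with the smallest p are named among those called against control, and 2 genes of similar pattern for each called chemokine. Adam10, Adam17, Cxcl3 and Cxcl5 fell outside this rule and were named after their values were seen. The cell type markers that are named singly were also picked after their values were seen. The members and lists were chosen with earlier results of these data known. Cxcl15 and Ifng were not analysed here, nor were protein sequences.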

Additional observations from a re-analysis of the deposited data

Results flagged for a closer look

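Among the chemokines and their receptors, 34 sets of 1 gene in 1 group of 4 or 5 livers were examined for a liver far from the others, and 2 sets had one. Chance gives about 1 in 20. Cxcr6 was highest in hAAM replicate 3, with 116 counts. Its log2 CPM there was 1.19, against 0.77 to 0.81 in the other hAAM-treated livers, and the gap was 0.892 of the range of the group. Ackr1 was lowest in hAAM replicate 2, with 26 counts. Its log2 CPM there was −0.95, against −0.50 to −0.41 in the other hAAM-treated livers, and the gap was 0.837 of the range. Groups of 3 were not examined in this way, so the high values of control replicate 1 were not part of it.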

How the results depend on the processing

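Cxcl1 kept its direction and its call against control in every alternative run, and 0 chemokines were called between the treatments in any. With vehicle the count of called chemokines, 2, was 2 to 4 when 1 liver was left out, with 4 without control replicate 3, and 5 with DESeq2 without control replicate 1 (2 of them higher). With hAAMs the count, 4, was 1 with only the compared groups in the fit, 1 at an FDR of 0.01, 2 without hAAM replicate 4 and vehicle replicate 3 together, and 2 to 5 when 1 liver was left out. It was 2 without control replicate 1, vehicle replicate 1, 2 or 3, or hAAM replicate 1 or 2.

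Same-numbered livers correlated between −0.458 and 0.385 in their deviations from the group means, so the replicate numbers did not pair the mice. With the numbers as a replicate block, the counts were 3 with vehicle (Cxcl16 higher), 2 with hAAMs and 0 between the treatments, and the block turned the Cx3cl1 value with hAAMs to −0.0353.

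DESeq2 without control replicate 1, added after seeing the data, turned Cxcl10 to 1.41 with vehicle and 1.30 with hAAMs, Cxcl2 to 1.63 and 0.86, and Cxcl14 with hAAMs to −0.0142. Leaving out 1 liver gave both signs for Cxcl10 with vehicle (−3.08 to 1.41), with hAAMs (−3.20 to 1.30) and between the treatments (−0.63 to 0.16), and for Cxcl2 with vehicle (−2.96 to 1.63) and with hAAMs (−4.07 to 0.86). The same held for Cx3cl1 with vehicle (−0.13 to 0.31), with hAAMs (−0.20 to 0.28) and between the treatments (−0.27 to 0.17), for Cxcl14 with hAAMs (−0.00486 to 1.87), and between the treatments for Cxcl12 (−0.28 to 0.0159) and Cxcl16 (−0.18 to 0.0213). Of 621 values of single chemokines under alternatives, 546 kept direction and side of the threshold, 31 lost a call, 20 gained one and 24 changed sign. Scaling by library size alone ended the Cxcl12 call with hAAMs (−0.34, FDR 0.128) and left −0.17 with vehicle. The causes were not tested. With 3 control livers, 1 of them apart, the comparisons with control have little precision for Cxcl2 and Cxcl10.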
